A study of Mus musculus with 2 samples.

Results

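The cell cycle genes described here are 42 genes, 19 that act around S phase and 23 that act in G2 and mitosis, followed through 6 cell classes of 2 mouse tumors analysed by droplet single-cell RNA sequencing. The genes were taken by symbol, and all 42 were found among the 32285 genes of the deposited counts. The tumors grew from MC38, a mouse colon cancer line, inoculated under the skin of female C57BL/6 mice 6 to 8 weeks old that were wild type (Lmo7+/+) or lacked Lmo7 in the whole body (Lmo7-/-). The inoculated MC38 cells were the same line in both hosts and were not deleted for Lmo7, and no other treatment is named in the labels. Live cells were sorted before loading, each genotype is 1 library, and the number of mice behind a library is not given in the sources used here. The study asked what changes among the cells of a tumor when the host lacks Lmo7, and the values below show how the S-phase and G2/M genes were spread over the cell types of both libraries.

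A dividing cell copies its DNA in S phase and separates the copies in mitosis, and each step has its own genes. Around S phase, cyclin E with its kinase Cdk2 and the licensing factors Cdc6 and Cdt1 load and fire the Mcm helicase, while Rrm1, Rrm2 and Tyms supply deoxynucleotides and Pcna holds the polymerase on DNA. In G2 and mitosis, cyclins A and B activate Cdk1, the Aurora and Polo kinases drive spindle assembly, Bub1 and Bub1b guard the attachment of chromosomes, and Cdc20 and Ube2c act in the destruction of cyclin B that ends mitosis. Genes of the first kind are classic targets of E2F factors, and genes of the second kind are classic targets of the MuvB complexes with B-Myb and FoxM1. In tumors both kinds are read as marks of dividing cells, among the malignant cells and among the leukocytes between them.

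The Lmo7+/+ library held 16208 droplets with 98582479 UMIs (unique molecular identifiers, 1 for each captured RNA molecule) and the Lmo7-/- library 15163 droplets with 80648345 UMIs. After a filter on genes, UMIs and mitochondrial share, 13542 and 11860 cells were kept with medians of 4535.5 and 4304.5 UMIs, and 279 cell barcodes occurred in both libraries. Lmo7 itself had 7 and 10 UMIs in macrophages (0.443 and 0.594 for each 1000000 UMIs) and 20 and 12 UMIs in stromal cells (17.5 and 12.4), so the genotype could not be checked with it and the libraries are called by their labels. Levels below are CPM (UMIs of a gene per 1000000 UMIs of all cells of a class in a library), given first for Lmo7+/+ and then for Lmo7-/-. Ranges in brackets are 95% intervals that cover counting error only. With 1 library per genotype there is no replicate check and no test between genotypes or cell classes, and a ratio compares 2 libraries.

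Cells were clustered without the 42 genes, other cell cycle genes and histone genes, and clusters were named from marker genes, so that each name means cells like that type. The libraries held 5631 and 3874 tumor cells, 2721 and 3382 macrophages, 1412 and 1238 monocytes, 302 and 199 dendritic cells, 504 and 680 T cells, and 226 and 172 stromal cells (fibroblasts and endothelial cells). The marker lists of macrophages, dendritic cells, T cells, fibroblasts and endothelial cells were each highest in the matching class. The monocyte list summed to 2198 and 1894 CPM in monocytes but to 2322 and 2628 in stromal cells, and the macrophage list reached 10473 and 11130 in monocytes against 20096 and 23798 in macrophages. Tumor cells carried few epithelial markers, with Krt7, Cldn4 and Cldn7 at 0 in the Lmo7-/- library, and were set apart by chromosome-wide shifts in expression and by Ptprc, the gene of the leukocyte protein CD45, at 3.78 and 4.39 CPM against 458 to 815 in the immune classes. A further cluster of 1191 and 1155 cells had the same chromosome profile but was led by Enpp2, Igfbp5 and Ptn. Its leading genes also held Pdgfrb and the collagen genes Col5a3, Col6a2, Col3a1 and Col7a1. It is called the collagen-led cluster and was kept out of the tumor cells.

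The promoters of both groups of genes differed in sequence, which the choice of genes did not use. RefSeq promoter windows (GRCm38.p6, 250 bases before to 50 bases after the start of transcription) were found for 35 of the 42 genes, 16 S-phase and 19 G2/M genes. E2F letters, searched as TTTCGCGC or TTTGGCGC on both strands, were present for 5 of 16 S-phase genes (Cdt1, Mcm3, Mcm5, Mcm6 and Mcm7) and for 1 of 19 G2/M genes (Cdk1), against 0.813% of all 32851 windows. The CHR element bound by MuvB, searched as TTTGAA or TTCGAA on both strands, was present for 15 of 19 G2/M genes and for 2 of 16 S-phase genes (Mcm2 and Mcm7), against 19.2% of all windows. The NF-Y box CCAAT, searched on both strands, was present for 16 of 19 G2/M and 11 of 16 S-phase genes, against 37.4% of all windows. A CHR together with a CCAAT was present for 14 of 19 G2/M genes and 2 of 16 S-phase genes, against 7.52% of all windows. A match is a run of letters and not a measured site.

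Windows are printed for Mcm5 and Mcm6, 2 subunits of the helicase whose E2F letters are in doubled form, with matches to any of the 3 motifs in capitals. Mcm5 lies at chr8:75109259-75109558 on the plus strand and Mcm6 at chr1:128359656-128359955 on the minus strand, and both are written 5′ to 3′ along the gene.
Mcm5: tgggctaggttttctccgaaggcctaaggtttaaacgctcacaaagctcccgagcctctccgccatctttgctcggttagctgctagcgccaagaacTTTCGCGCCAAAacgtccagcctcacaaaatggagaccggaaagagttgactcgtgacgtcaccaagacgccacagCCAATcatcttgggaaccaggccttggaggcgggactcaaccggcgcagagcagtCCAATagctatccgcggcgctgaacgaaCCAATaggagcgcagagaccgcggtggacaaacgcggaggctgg
Mcm6: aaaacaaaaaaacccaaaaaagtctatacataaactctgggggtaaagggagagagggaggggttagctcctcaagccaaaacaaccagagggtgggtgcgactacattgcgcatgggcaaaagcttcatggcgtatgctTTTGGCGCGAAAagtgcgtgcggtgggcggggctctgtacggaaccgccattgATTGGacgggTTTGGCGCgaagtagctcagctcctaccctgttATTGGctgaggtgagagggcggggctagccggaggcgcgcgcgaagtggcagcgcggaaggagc
In Mcm5 an E2F match on the strand of the gene begins at position -153 from the start of transcription and overlaps one on the opposite strand that begins at -149. Mcm6 has the same overlapping pair at -110 and -106 and a further match at -47.

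Windows of 4 G2/M genes that are described below show the CHR and CCAAT letters together, printed in the same way. Cdc20 lies at chr4:118437294-118437593 and Ccnb2 at chr9:70421505-70421804, both on the minus strand, and Plk1 at chr7:122159185-122159484 and Ube2c at chr2:164769679-164769978, both on the plus strand.
Cdc20: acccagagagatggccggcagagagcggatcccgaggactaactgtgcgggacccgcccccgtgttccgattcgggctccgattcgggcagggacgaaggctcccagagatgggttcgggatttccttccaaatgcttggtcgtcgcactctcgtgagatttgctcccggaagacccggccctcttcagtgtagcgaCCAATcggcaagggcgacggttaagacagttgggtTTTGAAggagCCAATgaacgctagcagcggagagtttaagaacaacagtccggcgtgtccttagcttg
Ccnb2: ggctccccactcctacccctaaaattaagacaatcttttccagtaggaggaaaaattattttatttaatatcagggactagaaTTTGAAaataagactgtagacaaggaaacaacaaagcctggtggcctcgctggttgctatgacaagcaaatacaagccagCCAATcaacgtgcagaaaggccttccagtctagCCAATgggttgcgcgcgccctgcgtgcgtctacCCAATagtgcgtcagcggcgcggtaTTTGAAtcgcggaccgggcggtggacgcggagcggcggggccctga
Plk1: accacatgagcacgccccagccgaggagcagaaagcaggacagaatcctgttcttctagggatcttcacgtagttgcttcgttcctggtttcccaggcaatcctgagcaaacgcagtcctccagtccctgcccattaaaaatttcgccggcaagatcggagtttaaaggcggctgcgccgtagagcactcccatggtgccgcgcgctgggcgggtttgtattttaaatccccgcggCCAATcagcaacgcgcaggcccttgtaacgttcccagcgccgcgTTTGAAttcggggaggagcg
Ube2c: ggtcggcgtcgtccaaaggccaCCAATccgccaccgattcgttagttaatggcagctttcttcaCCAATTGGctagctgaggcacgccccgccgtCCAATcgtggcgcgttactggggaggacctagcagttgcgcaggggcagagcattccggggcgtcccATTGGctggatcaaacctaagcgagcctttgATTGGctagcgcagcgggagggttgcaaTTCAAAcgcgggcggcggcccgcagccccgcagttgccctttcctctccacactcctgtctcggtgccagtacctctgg
The CHR matches begin at -18 in Cdc20, at -167 and 4 in Ccnb2, at 30 in Plk1 and at -29 in Ube2c, where the match is on the opposite strand. CCAAT matches begin at -53 and -8 in Cdc20, at -87, -54 and -21 in Ccnb2 and at -14 in Plk1, and Ube2c holds 6 of them.

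The phase of nearly every G2/M gene, and of most S-phase genes in tumor cells and macrophages, could be read from the other genes of the same cell. Each cell was thinned to 1500 UMIs and called S-leaning or G2/M-leaning from the other 41 genes, and the level of the gene left out was compared between both kinds of cell. All 23 G2/M genes were higher in G2/M-leaning cells among tumor cells, macrophages and monocytes of both libraries, with intervals of the log2 ratio above 0. In T cells this held for 21 of 23, and Bub1 and Bub1b, which guard chromosome attachment, each had an interval reaching 0 in 1 library. Of the 19 S-phase genes, 16 were higher in S-leaning cells in both libraries among tumor cells, 16 among macrophages, 13 among monocytes and 10 among T cells. Those that fell short in monocytes were Ccne1, Cdt1, Gins2, Pclaf, Rrm1 and Slbp. In T cells they were Ccne1, Ccne2, Cdc6, Cdt1, Gins2, Mcm7, Pclaf, Rrm1 and Tyms.

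**Figure D1:**
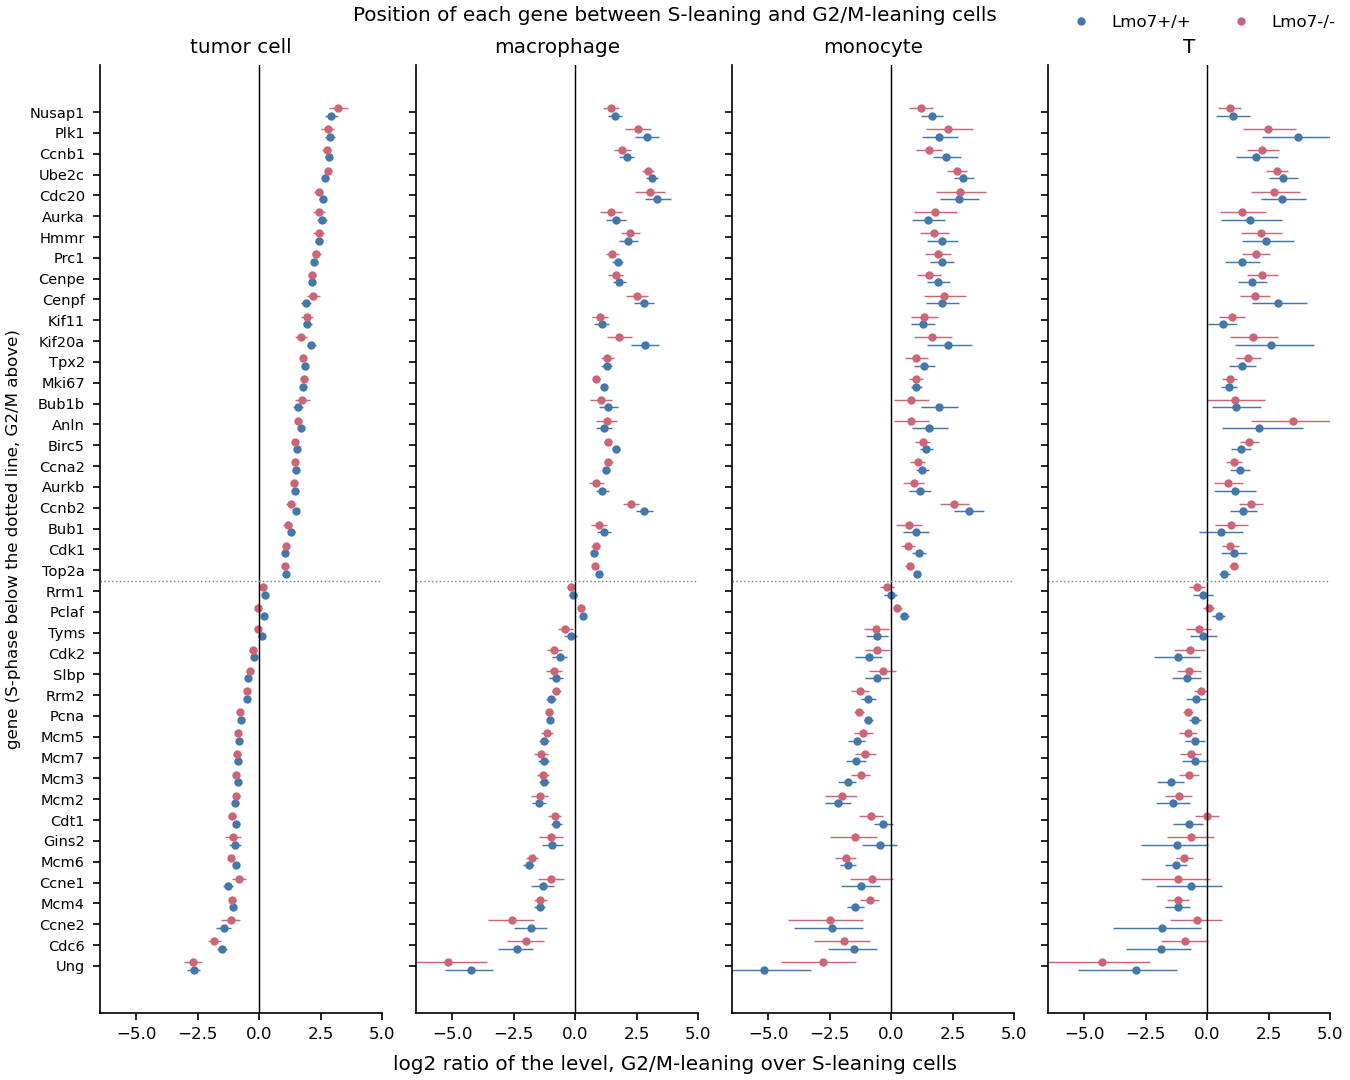
Log2 ratio of the level of each gene in G2/M-leaning over S-leaning cells (x axis) for 42 genes (y axis, S-phase genes below the dotted line), with 1 panel per cell class, blue points for Lmo7+/+, red points for Lmo7-/- and lines for 95% counting intervals, which are cut at the axis ends. G2/M genes lie right of 0 and most S-phase genes left of 0, with Tyms, Rrm1 and Pclaf near 0, and Nusap1 lies farther right in tumor cells (2.92 and 3.20) than in macrophages (1.62 and 1.44).

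The 3 S-phase genes that were not on the S side in both libraries, in tumor cells or macrophages, were Tyms, which makes thymidylate, Rrm1, the large subunit of ribonucleotide reductase, and Pclaf, a Pcna-binding protein. Rrm1 stood at 191 CPM in S-leaning and 221 in G2/M-leaning tumor cells of the Lmo7+/+ library, and at 188 and 210 in the Lmo7-/- library. Its partner Rrm2, the small subunit, kept to the S side in both.

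At the far S end in tumor cells and in Lmo7+/+ macrophages stood Ung, a uracil glycosylase that repairs new DNA, and Cdc6. In the Lmo7+/+ library Ung stood at 55.3 CPM in S-leaning and 8.67 in G2/M-leaning tumor cells, a log2 ratio of -2.67 (-2.94 to -2.41), and at 64.4 and 3.42 in macrophages, a ratio of -4.24 (-5.31 to -3.33). Cdc6 stood at 59.8 and 20.8 in the same tumor cells and at 35.9 and 6.82 in the same macrophages. At the G2/M end, Ube2c, the ubiquitin-conjugating enzyme of the anaphase-promoting complex, stood at 73.2 in S-leaning and 467 in G2/M-leaning Lmo7+/+ tumor cells, and Plk1, the Polo kinase, at 18.3 and 134. Cdk1 and Top2a, the topoisomerase that untangles sister DNA, differed least among the G2/M genes there, with log2 ratios of 1.04 (0.97 to 1.12) and 1.06 (1.02 to 1.10).

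The positions were close between the libraries and shifted between cell classes for a few genes. Across the 42 genes, which share their cells and depth and are not independent, Pearson's r between the log2 ratios of both libraries was 0.995 in tumor cells, 0.987 in macrophages, 0.957 in monocytes and 0.930 in T cells. Nusap1, a spindle microtubule protein singled out after its values were seen, had ratios of 2.92 (2.66 to 3.19) and 3.20 (2.83 to 3.59) in tumor cells and 1.62 (1.34 to 1.90) and 1.44 (1.14 to 1.76) in macrophages. Ccnb2, a B-type cyclin singled out in the same way, had the opposite order, with 1.48 (1.35 to 1.62) and 1.27 (1.09 to 1.44) in tumor cells and 2.80 (2.48 to 3.14) and 2.24 (1.92 to 2.57) in macrophages. In neither gene did the intervals of tumor cells and macrophages overlap in either library.

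T cells had the highest summed level of the S-phase genes, and tumor cells and T cells the highest of the G2/M genes. The 19 S-phase genes summed to 2532 (2453 to 2612) and 2629 (2560 to 2699) CPM in T cells and to 1697 (1686 to 1709) and 1613 (1599 to 1627) in tumor cells. The 23 G2/M genes summed to 2471 (2458 to 2485) and 2435 (2418 to 2452) in tumor cells and to 2263 (2189 to 2339) and 2400 (2334 to 2467) in T cells. In these sums tumor cells stood above T cells for the G2/M genes in the Lmo7+/+ library, while the intervals overlapped in the Lmo7-/- library. A sum counts deep cells more than shallow ones. With each cell thinned to the same depth, shallower cells left out, tumor cells averaged 3.75 and 3.79 G2/M UMIs. T cells averaged 2.81 and 3.04. For S-phase UMIs T cells stayed higher, at 3.30 and 3.59 against 2.50 and 2.38. As a mean over cells, the G2/M log2 ratio over macrophages was 1.3 in tumor cells and 0.68 in T cells. These means have no interval, and the part of depth was not tested.

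The myeloid classes lay below, and stromal cells lowest. The S-phase sums were 1599 (1579 to 1619) and 1209 (1192 to 1226) in macrophages, 1363 (1335 to 1391) and 1394 (1363 to 1426) in monocytes, and 1298 (1237 to 1362) and 1123 (1055 to 1195) in dendritic cells. The G2/M sums of the same classes were 1398 (1380 to 1417) and 1101 (1085 to 1117), 1263 (1236 to 1290) and 1167 (1139 to 1196), and 1230 (1170 to 1293) and 864 (804 to 928). Stromal cells held 748 (699 to 800) and 841 (785 to 901) for the S-phase and 921 (867 to 979) and 673 (622 to 727) for the G2/M genes. Neighbours whose intervals overlapped were monocytes and dendritic cells in the Lmo7+/+ library, for both lists, and macrophages and dendritic cells in the Lmo7-/- library, for the S-phase list.

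**Figure D2:**
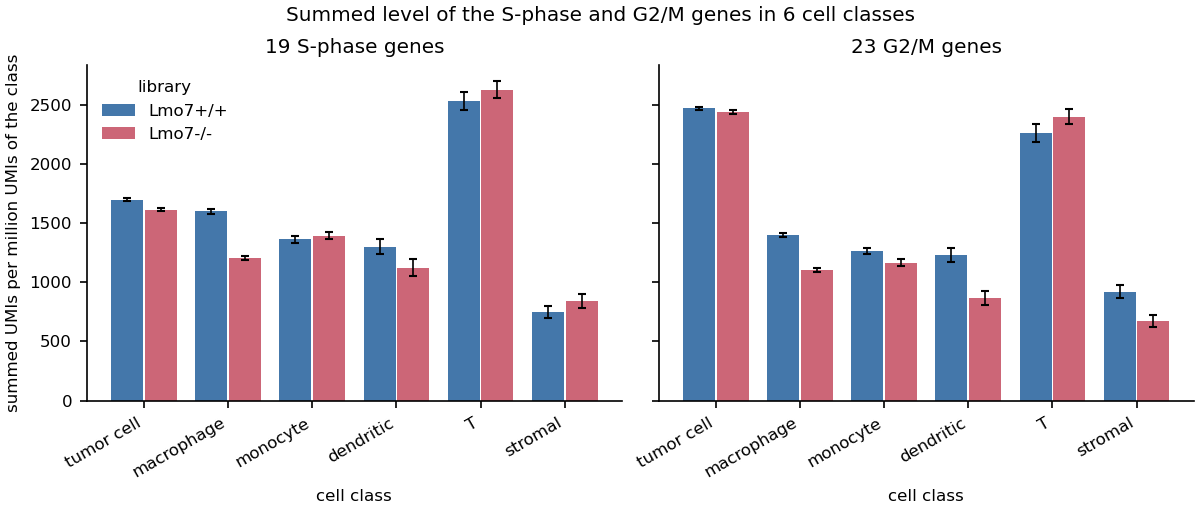
Summed CPM (y axis, from 0) of the 19 S-phase genes (left panel) and the 23 G2/M genes (right panel) in 6 cell classes (x axis), with blue bars for Lmo7+/+, red bars for Lmo7-/- and error bars for 95% counting intervals. T cells lead the S-phase panel with 2532 and 2629, tumor cells stand at 2471 and 2435 in the G2/M panel, and stromal cells are lowest in both.

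The balance of both lists separated tumor cells from leukocytes, and as a ratio within a class it does not depend on scaling between classes. G2/M over S-phase UMIs was 1.46 (1.44 to 1.47) and 1.51 (1.49 to 1.53) in tumor cells, 0.875 (0.859 to 0.890) and 0.911 (0.893 to 0.929) in macrophages, and 0.894 (0.854 to 0.936) and 0.913 (0.879 to 0.948) in T cells. Monocytes stood at 0.927 and 0.837, dendritic cells at 0.948 and 0.770, and stromal cells at 1.23 and 0.800. Tumor cells lay above 1 in both libraries and the leukocyte classes below 1, although the interval of dendritic cells in the Lmo7+/+ library reached 1.02.

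Among the S-phase genes, T cells held the highest value of 16 out of 19 in the Lmo7+/+ and 17 out of 19 in the Lmo7-/- library. The helicase subunits Mcm2, Mcm3, Mcm4, Mcm5, Mcm6 and Mcm7 were all highest in T cells in both libraries. Mcm6 stood at 227 and 219 CPM in T cells, 140 and 131 in tumor cells, 119 and 77.4 in macrophages, 98.5 and 91.3 in monocytes, 80.4 and 61.9 in dendritic cells, and 54.2 and 73.3 in stromal cells. For Mcm2 the distance from T cells to tumor cells was within counting error, with log2 ratios of 0.19 (-0.05 to 0.42) and 0.14 (-0.09 to 0.35). Mcm4 was the subunit with dendritic cells next to T cells, at 136 and 110 against 146 and 134.

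Pcna, the sliding clamp, was also highest in T cells but had macrophages above tumor cells, with 484 and 542 CPM in T cells and 368 and 316 in macrophages, against 264 and 265 in tumor cells. It stood at 302 and 315 in monocytes, 290 and 279 in dendritic cells and 156 and 191 in stromal cells. Pclaf, which binds the clamp, stood at 331 and 363 in T cells, at 191 and 187 in tumor cells and at 191 and 147 in macrophages. Gins2, a part of the replicative helicase, was about as high in macrophages (22.2) as in T cells (21.8) of the Lmo7+/+ library and ranged from 6.19 to 25.1 over the 12 sums.

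The nucleotide genes were also highest in T cells. Rrm2 stood at 176 and 239 CPM in T cells and 127 and 129 in tumor cells, and lay between 46.3 and 83.8 in the other classes. Rrm1 stood at 175 in T cells of both libraries, with 143 and 136 in tumor cells, and Tyms at 90.8 and 80.0 in T cells against 74.6 and 66.6 in tumor cells.

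The licensing factors and the remaining S-phase genes were highest in T cells with 2 exceptions. Cdt1 stood at 93.4 and 98.5 in T cells against 63.4 and 53.6 in tumor cells, and Cdc6 at 31.3 and 24.6 against 25.4 and 23.2. Slbp, which binds histone messenger RNA, stood at 114 and 111 in T cells against 69.7 and 68.0 in tumor cells, Ung at 26.9 and 28.4 against 20.8 and 18.6, and Ccne2 at 18.6 and 18 against 10.2 and 9.88. For Cdc6 the distance from T cells to tumor cells was within counting error, with log2 ratios of 0.30 (-0.14 to 0.72) and 0.09 (-0.35 to 0.49). So was that of Ung in the Lmo7+/+ library, at 0.37 (-0.11 to 0.81). The exceptions were Ccne1, a cyclin E, at 20.5 and 15.6 in T cells and 22.6 and 17.6 in tumor cells, and its kinase Cdk2, at 48.6 and 57.8 in T cells and 74.1 and 67.0 in tumor cells. For Cdk2 the log2 ratio of T cells over tumor cells was -0.61 (-0.95 to -0.28) and -0.21 (-0.49 to 0.05), so the order was within counting error in the Lmo7-/- library, as it was for Ccne1 in both.

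**Figure D3:**
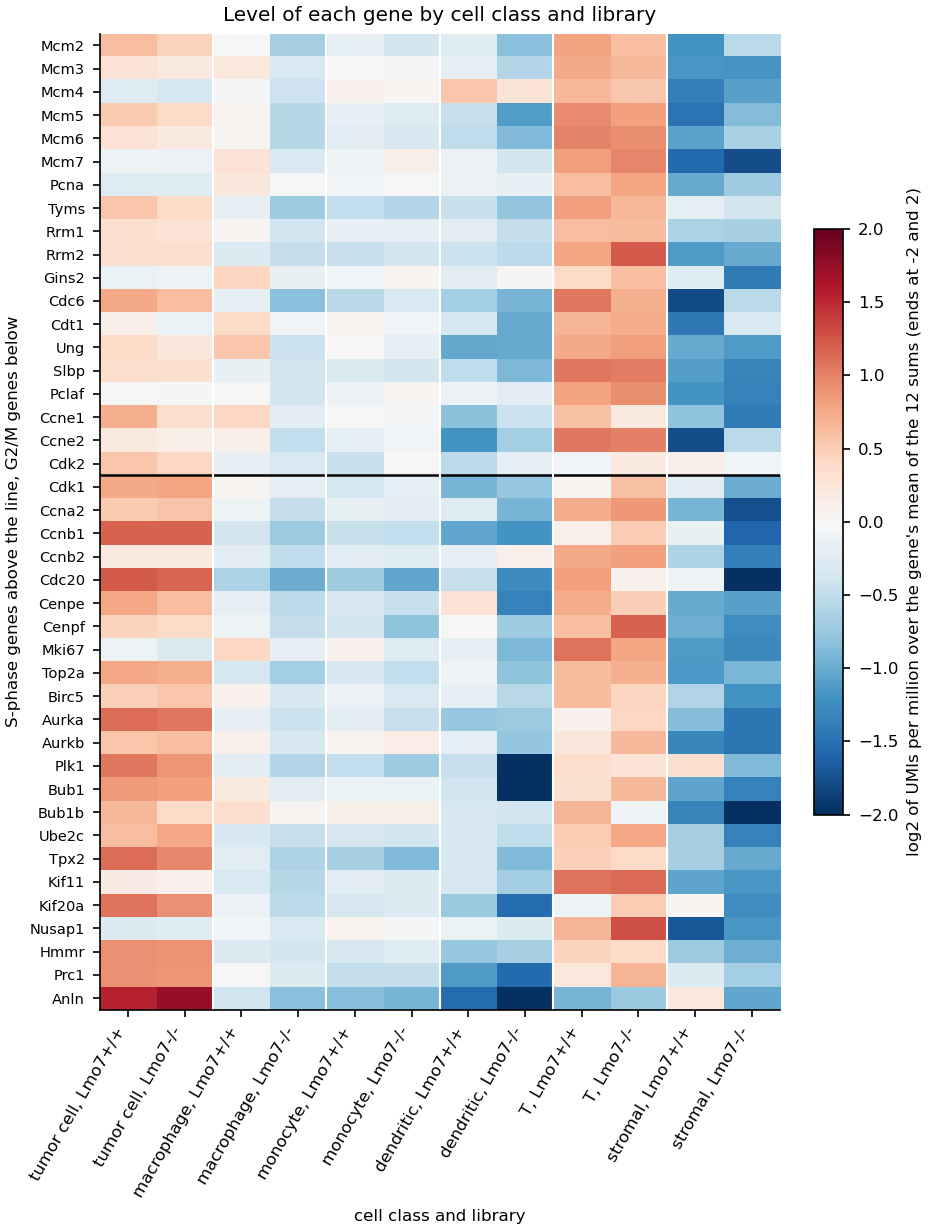
Heat map of 42 genes (y axis, S-phase genes above the black line) in 12 sums of cell class and library (x axis), coloured by the log2 of CPM over the mean of that gene, with red for higher, blue for lower and the scale ended at -2 and 2. T cell columns are red for most S-phase genes, tumor cell columns for most G2/M genes, and Anln reaches 92.5 and 106 CPM in tumor cells against 16.6 and 18.9 in T cells.

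Among the G2/M genes, 15 of 23 had their highest value in tumor cells and 8 in T cells, in each library, but these were not all the same genes. Birc5 and Bub1b were highest in T cells of the Lmo7+/+ and in tumor cells of the Lmo7-/- library, and Aurkb and Ube2c the other way round. For these genes and for Cenpe the distance between T cells and tumor cells was within counting error in both libraries, and for Top2a in the Lmo7-/- library. Cdk1, the mitotic kinase, stood at 175 and 179 CPM in tumor cells, 107 and 154 in T cells, 106 and 90.3 in macrophages, 80.4 and 90.4 in monocytes, 53.9 and 60.8 in dendritic cells, and 89.2 and 51.6 in stromal cells. Its cyclins were divided. Ccnb1 stood at 105 in tumor cells of both libraries and at 49.9 and 66.3 in T cells, while Ccnb2 stood at 67.3 and 66.6 in tumor cells and at 99.2 and 103 in T cells, and Ccna2 at 141 and 145 in tumor cells and 164 and 179 in T cells.

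Most of the genes that end mitosis and of the mitotic kinases were highest in tumor cells. Cdc20, the activator of the anaphase-promoting complex, stood at 87.9 and 83.7 in tumor cells and 66.5 and 39.8 in T cells, and lay between 9.29 and 35.8 in the other classes. Plk1 stood at 51.1 and 45.6 in tumor cells against 31.3 and 29.8 in T cells and 21.1 and 16.3 in macrophages, and Aurka, the Aurora A kinase, at 48.8 and 47.2 in tumor cells against 23.7 and 29.8 in T cells. Aurkb, the kinase of the passenger complex, and Birc5, its survivin subunit, were less divided, with Aurkb at 53.6 and 55.8 in tumor cells and 42.9 and 57.3 in T cells, and Birc5 at 162 and 171 in tumor cells and 182 and 158 in T cells. Ube2c stood at 178 and 199 in tumor cells and at 166 and 200 in T cells.

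The checkpoint kinases Bub1 and Bub1b stood at 52.5 and 51.3 and at 28.0 and 23.1 in tumor cells, against 35.8 and 45.5 and 28.1 and 16.6 in T cells. The kinetochore proteins Cenpe and Cenpf stood at 93.8 and 84.0 and at 40.1 and 38.4 in tumor cells, and at 91.5 and 77.2 and 44.8 and 66.3 in T cells. Of these 4 genes Bub1 was lower in T cells than in tumor cells of the Lmo7+/+ library, at a log2 ratio of -0.55 (-0.96 to -0.17), while the intervals of the other genes included 0 in that library.

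Genes of the spindle and of cell division did not share 1 order. Anln, which organises the contractile ring, stood at 92.5 and 106 CPM in tumor cells, 24.1 and 17.8 in macrophages, 17.6 and 16.8 in monocytes, 10.9 and 7.88 in dendritic cells, 16.6 and 18.9 in T cells, and 36.7 and 15.5 in stromal cells. Tpx2, an activator of Aurora A, stood at 154 and 138 in tumor cells against 61.2 and 46.4 in macrophages, Hmmr at 57.0 and 56.8 against 24.9 and 23.5, Prc1, which bundles midzone microtubules, at 99.4 and 96.8 against 53.1 and 43.7, and the motor Kif20a at 41.7 and 37.0 against 18 and 13.7. The motor Kif11 and Nusap1 had the other order, with Kif11 at 73.6 and 76.2 in T cells against 38.9 and 36.8 in tumor cells, and Nusap1 at 58.9 and 90.0 against 30.6 and 31.0.

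The common proliferation mark Mki67, a coat protein of mitotic chromosomes, was not highest in tumor cells. It stood at 252 and 206 CPM in T cells, 158 and 106 in macrophages, 127 and 100 in monocytes, 111 and 97.0 in tumor cells, 105 and 64.2 in dendritic cells, and 54.2 and 48.5 in stromal cells. Top2a stood at 562 and 540 in tumor cells, 509 and 540 in T cells and 258 and 205 in macrophages. The order of the classes thus differed between these marks.

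Differences between classes were also counted against all genes, calling a gene past 1.5-fold when it was so in both libraries after the median log2 ratio of all genes tested was subtracted. Between tumor cells and macrophages, where that median was 0.46 and 0.57 and 30.2% of 13220 genes were higher and 29.8% lower, 9 of 23 G2/M genes were higher (Ccnb1, Cdc20, Top2a, Aurka, Plk1, Tpx2, Kif20a, Hmmr and Anln) and Mki67 was lower. Of the 19 S-phase genes none was higher and 2 were lower, Pcna and Cdt1.

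Against tumor cells, T cells were past 1.5-fold higher in 13 of 19 S-phase genes (Mcm3, Mcm4, Mcm5, Mcm6, Mcm7, Pcna, Rrm2, Gins2, Cdt1, Ung, Slbp, Pclaf and Ccne2), where 25.3% of 12771 genes were higher and 25.9% lower, and no S-phase gene was lower. Of the G2/M genes 4 were higher, Ccnb2, Mki67, Kif11 and Nusap1, and Anln was lower. Against macrophages, T cells were higher in 7 S-phase genes (Mcm5, Mcm6, Tyms, Rrm2, Cdc6, Slbp and Ccne2) and 6 G2/M genes (Ccnb2, Cdc20, Cenpe, Top2a, Ube2c and Kif11), where 18.8% of 11308 genes were higher and 23.7% lower, and none of the 42 was lower. Stromal cells were lower than macrophages in 9 S-phase and 11 G2/M genes and higher in none, where 23.1% of 11534 genes were higher and 19.7% lower.

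Summed over both libraries, tumor cells over macrophages had a log2 ratio of 0.25 for the S-phase and 0.98 for the G2/M genes, and T cells over macrophages 0.89 and 0.91. With TMM scaling, which sets the bulk of genes equal between classes, the S-phase ratio of tumor cells over macrophages turned to -0.15 and the other ratios became 0.58, 0.46 and 0.48. Markers of other cells were counted in these classes and their part was not tested. C1qa, a macrophage gene, stood at 2083 and 2356 in macrophages, 54.4 and 50.7 in T cells and 14.6 and 13 in tumor cells. The tumor marker list summed to 146 and 184 in T cells against 166 and 228 in tumor cells.

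Within the classes the level of both lists depended on the cluster. The tumor clusters led by Tinagl1 and by Hoxc10 summed to 1971 and 1944 and to 2169 and 2195 for the S-phase genes, whereas the cluster led by Car9, a carbonic anhydrase induced by low oxygen, summed to 859 and 728. The G2/M sums were 2870 and 2837, 3616 and 4173, and 1158 and 1138 in the same order. The Hoxc10-led cluster had a median of 0.246% mitochondrial UMIs, far below the other tumor clusters, and leaving it out changed the tumor sums to 1671 and 1575 for the S-phase and 2408 and 2322 for the G2/M genes.

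Macrophages led by Ms4a7 summed to 1661 and 1265 for the S-phase genes and those led by Mmp12 and Arg1 to 746 and 636, with G2/M sums of 1449 and 1146 and of 712 and 651. Among T cells, the Cd8a-led cluster summed to 2498 and 2633 for the S-phase and 2310 and 2356 for the G2/M genes. The Foxp3-led cluster, of 73 and 83 cells, summed to 2767 and 2593 and to 1927 and 2774. Mature dendritic cells, led by Ccr7, had low sums, at 763 and 496 for the S-phase and 439 and 358 for the G2/M genes.

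Shares of cells that carried these RNAs were compared among cells with at least 1500 UMIs. Among the 6 classes, they were highest in T cells for the S-phase and in tumor cells for the G2/M genes. After thinning each cell to 1500 UMIs, which left out shallower cells (761 and 577 tumor cells, 124 and 288 macrophages, 125 and 177 T cells), at least 3 S-phase UMIs were present in 39.3% and 36.3% of tumor cells, 29.1% and 20.5% of macrophages, and 44.1% and 47.7% of T cells. At least 3 G2/M UMIs were present in 42.8% and 42.2% of tumor cells, 23.1% and 18.7% of macrophages, and 31.7% and 33.8% of T cells. Without thinning, the S-phase shares of these classes were 74.3% and 70.7%, 63.1% and 48.2%, and 50.8% and 51.8%, at median UMI counts of 5718 and 5216 in tumor cells, 5341 and 4476.5 in macrophages and 2238.5 and 2244 in T cells. Thinned T cells with at least 3 UMIs of either list had median depths of 3541 and 3839 UMIs, against 2250 and 2244 without. Tumor cells went the other way, at 6748 and 6033.5 against 8407 and 7590. The part of the left-out cells in the order of the classes was not tested.

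Monocytes stood at 21.7% and 22.4% for the S-phase and 17.6% and 18.3% for the G2/M genes, dendritic cells at 22% and 18% and at 19.5% and 14.4%, and stromal cells at 14.7% and 14.5% and at 15.2% and 11.7%. Mature dendritic cells, which are not expected to divide, give a measure of background, with 12.5% and 4.00% of 32 and 25 cells for the S-phase and 6.25% and 12% for the G2/M genes. Over all 36 and 27 cells of that cluster, shallower ones included, the median depths were 3499.5 and 2543 UMIs. The shares of stromal and dendritic cells, the G2/M shares of monocytes, the S-phase share of Lmo7+/+ monocytes and the G2/M share of Lmo7-/- macrophages lay within the wide intervals of that background. So did the shares of the Car9-led tumor cluster, at 15% and 11.6% for the S-phase and 15.9% and 15.3% for the G2/M genes. That background, itself part of the dendritic class, has too few cells for the overlap to show these groups alike. Its G2/M sums were 439 (336 to 564) and 358 (243 to 508) CPM, against 1158 and 1138 in the Car9-led cluster and 1263 and 1167 in monocytes. For the S-phase sums the intervals of stromal cells and of that cluster overlapped the background in the Lmo7+/+ library. Many cells lay next to the limit, with 2 or 3 S-phase UMIs in 27.6% and 27.1% of tumor cells, so the shares are ranges of a score and not counts of dividing cells.

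**Figure D4:**
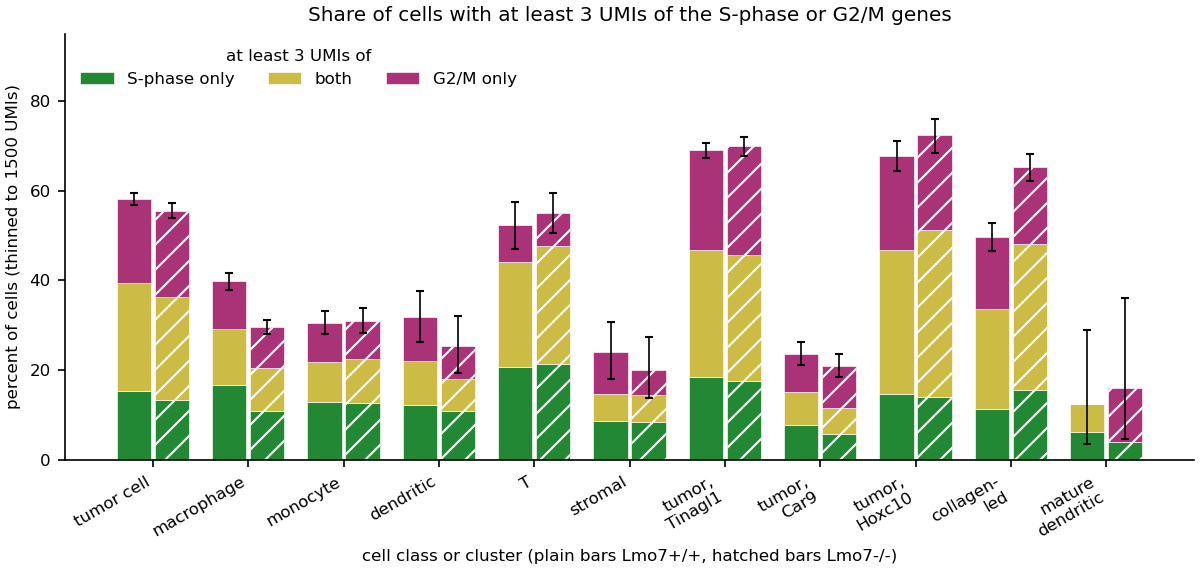
Percent of cells (y axis, from 0) with at least 3 UMIs of the S-phase genes alone (green), the G2/M genes alone (purple) or both (yellow) after thinning to 1500 UMIs, by class or cluster (x axis), with plain bars for Lmo7+/+, hatched bars for Lmo7-/- and error bars for 95% binomial intervals of the whole bar. Macrophages stand at 39.7% and 29.6%, the collagen-led cluster at 49.6% and 65.2%, and the Car9-led tumor cluster at 23.6% and 20.9%.

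Between the libraries, the macrophages were the class in which nearly all of the genes lay on one side. The Lmo7-/- over Lmo7+/+ log2 ratio was -0.40 (-0.43 to -0.38) for the S-phase sum and -0.34 (-0.37 to -0.32) for the G2/M sum, and the ratios of all 42 genes were below 0. The median of all 11863 genes tested in macrophages was -0.10, and 41 of the 42 lay below it, the exception being Hmmr, a spindle protein, at -0.08. Past 1.5-fold from that median, however, was only Ung, where 5.49% of all genes were higher and 4.19% lower, so the ratios are small and the count is below the background. Without subtracting the median, 8 genes were past 1.5-fold lower, but no share of all genes is given for that setting.

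Ung went from 23.3 to 11.8 CPM in macrophages, a log2 ratio of -0.99 (-1.24 to -0.73), Cdc6 from 13.4 to 8.44 and Mcm2 from 58.5 to 37.0. At the other end were Hmmr at 24.9 and 23.5, Ube2c at 93.2 and 84.6 and Cdk2 at 45.1 and 40.8. The median log2 ratio was -0.55 over the S-phase and -0.36 over the G2/M genes. The share of macrophages with at least 3 S-phase UMIs differed by -8.66 percentage points (-10.91 to -6.41) and that with G2/M UMIs by -4.46 (-6.59 to -2.34). Both stayed below 0 under the other limits and depths, the S-phase difference between -4.46 with at least 5 UMIs and -14.9 without thinning, the G2/M difference between -3.28 and -11 under the same settings. Macrophages also differed in depth, with median UMI counts of 5341 and 4476.5, and the part of this in the result was not tested, although the shares rest on cells thinned to the same depth. Within the Ms4a7-led cluster the S-phase and G2/M ratios were -0.39 (-0.42 to -0.37) and -0.34 (-0.37 to -0.31).

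**Figure D5:**
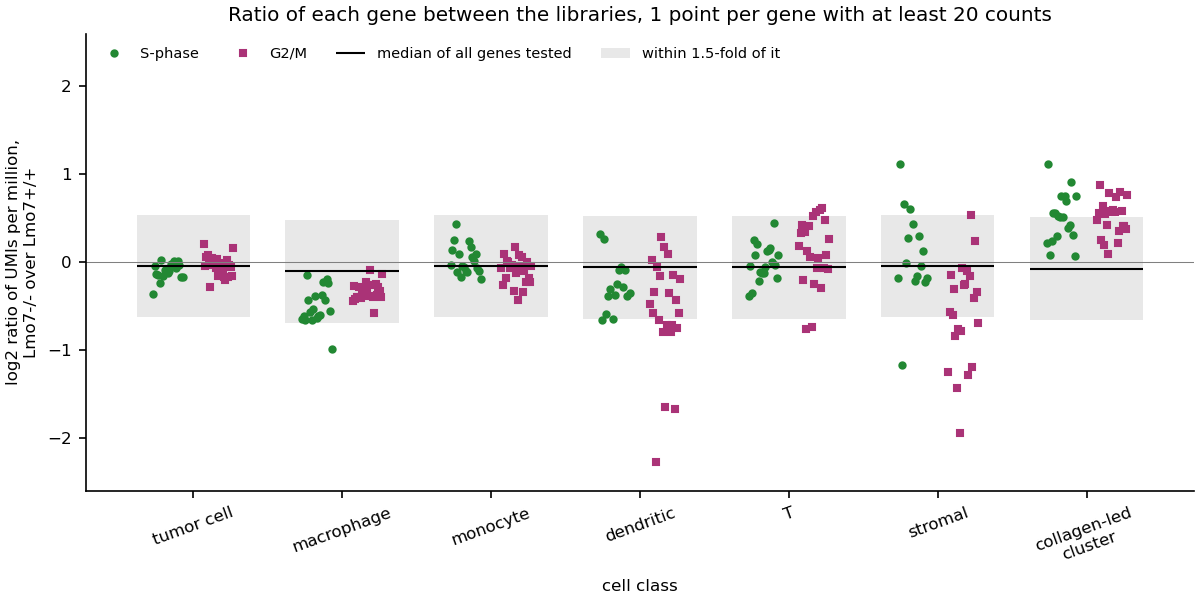
Log2 ratio of CPM, Lmo7-/- over Lmo7+/+ (y axis), for each gene with at least 20 counts, by cell class (x axis), with green circles for S-phase and purple squares for G2/M genes, black lines for the median of all genes tested and grey bands for 1.5-fold around it. All macrophage points lie below 0, all points of the collagen-led cluster lie above 0, and stromal and dendritic points reach below -1.

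In tumor cells no gene was past 1.5-fold, where 3.61% of all 13682 genes were higher and 3.44% lower, and the median of all genes was -0.04. The ratio was -0.07 (-0.09 to -0.06) for the S-phase and -0.02 (-0.03 to -0.01) for the G2/M sum. The lowest ratios were those of Ccne1 at -0.37 (22.6 and 17.6 CPM), Bub1b at -0.28 and Cdt1 at -0.24, and the highest those of Anln at 0.20 (92.5 and 106), Ube2c at 0.16 and Birc5 at 0.08. The direction of the sums depended on which cells were counted as tumor cells, since with the collagen-led cluster both ratios were 0.10.

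That cluster differed between the libraries by an amount that depended on the clustering. Its S-phase sum was 1607 and 2327 CPM, a log2 ratio of 0.53 (0.51 to 0.56), and its G2/M sum 2110 and 2973, a ratio of 0.49 (0.47 to 0.52). All 42 genes lay above the median of all 12283 genes, which was -0.07, and 24 were past 1.5-fold higher and none lower, where 6.85% of all genes were higher and 11.1% lower. The highest ratios were those of Ccne2 at 1.12 (8.10 and 17.6 CPM), Rrm2 at 0.91 (139 and 260) and Aurkb at 0.87 (45.3 and 83.0), and the lowest those of Tyms at 0.07, Cdc6 at 0.08 and Ccnb2 at 0.09. Median depth moved in the same direction, at 5346 and 7875 UMIs per cell, and its part was not tested. With cells thinned to the same depth, 33.7% and 48.1% of cells had at least 3 S-phase UMIs, a difference of 14.45 points (10.23 to 18.60). Which cells fell into the cluster changed with the clustering. With cell cycle genes kept, the matching cluster had 1065 and 659 cells, and its ratios were 0.18 (0.13 to 0.22) for the S-phase and 0.08 (0.04 to 0.11) for the G2/M sum. That setting sorts cells partly by the genes compared, so its ratios are not an independent check. It also gave a separate tumor cluster of 267 and 527 cells, whose leading genes included Cdc20, Rrm2 and Mybl2. At resolution 1.0 it had 925 and 649 cells, with ratios of 0.28 (0.24 to 0.32) and 0.43 (0.39 to 0.46).

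In monocytes no gene was past 1.5-fold, where 3.87% of all genes were higher and 4.79% lower. The sums had log2 ratios of 0.03 (-0.01 to 0.08) for the S-phase and -0.11 (-0.16 to -0.07) for the G2/M genes. The lowest genes were Cenpf at -0.43, Mki67 at -0.34 and Cdc20 at -0.33, and the highest Cdk2 at 0.44 (37.1 and 50.3 CPM), Cdc6 at 0.25 and Mcm7 at 0.24.

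In T cells the sums had ratios of 0.05 (-0.0047 to 0.11) and 0.08 (0.02 to 0.15). Past 1.5-fold were 3 genes higher, Cenpf, Kif20a and Nusap1, and 2 lower, Cdc20 and Bub1b, where 5.75% of all genes were higher and 7.33% lower. Nusap1 stood at 58.9 and 90.0 CPM (92 and 190 UMIs), Cenpf at 44.8 and 66.3, and Cdk1 at 107 and 154. Cdc20 stood at 66.5 and 39.8 (104 and 84 UMIs), Cdc6 at 31.3 and 24.6 and Mki67 at 252 and 206. With cells marked as doublets left out, 5 genes were higher and none lower, a setting for which no share of all genes is given.

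Dendritic cells had few cells and a lower G2/M sum in the Lmo7-/- library. The sums had ratios of -0.21 (-0.32 to -0.09) for the S-phase and -0.51 (-0.64 to -0.38) for the G2/M genes. Of the 38 genes with at least 20 counts, 11 were past 1.5-fold lower and none higher, where 6.43% of all genes were higher and 9.33% lower. They were Mcm5, Cdt1, Ccna2, Cdc20, Cenpe, Cenpf, Mki67, Top2a, Plk1, Bub1 and Kif20a, while Cdc6, Ung, Ccne1 and Ccne2 were below the minimum. Cenpe, a kinetochore motor, stood at 67.1 and 21.4 CPM (86 and 19 UMIs), Top2a at 314 and 187 (402 and 166 UMIs) and Mki67 at 105 and 64.2. Ccnb2 at 51.5 and 63.0, Cdk1 at 53.9 and 60.8 and Pcna at 290 and 279 were at the other end. With a minimum of 100 counts 5 genes were past 1.5-fold lower, and no share of all genes is given for that minimum. The share of dendritic cells with at least 3 G2/M UMIs differed by -5.06 percentage points, with an interval (-11.68 to 1.99) that included 0. The macrophage marker list moved the other way in these cells, at 1549 and 2034 CPM, and its part was not tested.

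Stromal cells had a ratio of 0.17 (0.03 to 0.31) for the S-phase sum and -0.45 (-0.60 to -0.31) for the G2/M sum. Of 37 genes tested, 3 were past 1.5-fold higher (Mcm2, Mcm5 and Cdt1) and 10 lower (Gins2, Cdk1, Ccna2, Ccnb1, Ccnb2, Cdc20, Plk1, Ube2c, Kif20a and Anln), where 9.25% of all genes were higher and 8.89% lower. Cdk1 stood at 89.2 and 51.6 CPM (102 and 50 UMIs), Ube2c at 73.4 and 45.4, and Birc5 at 76.9 and 50.6, while Mcm6 stood at 54.2 and 73.3, Pcna at 156 and 191 and Top2a at 148 and 174. The class holds fibroblasts and endothelial cells, and these went apart. In fibroblasts, 127 and 98 cells, the G2/M sum was 840 and 355, a ratio of -1.24 (-1.49 to -1.01), and the S-phase sum 778 and 596. The shares of cells with at least 3 G2/M UMIs differed by -3.49 percentage points (-10.78 to 4.19) in stromal cells and by -9.63 (-19.73 to 1.00) in the fibroblasts, intervals that included 0. In endothelial cells, 99 and 74 cells, the G2/M sum was 1028 and 1101 and the S-phase sum 708 and 1171, a ratio of 0.73 (0.52 to 0.93). Their share of cells with at least 3 S-phase UMIs differed by 7.11 percentage points (-5.31 to 20.28), an interval that also included 0. Without the cells whose barcode occurred in both libraries the G2/M ratio of the class was -0.30, and with a minimum of 100 counts 2 genes were past 1.5-fold lower and none higher. For that minimum no share of all genes is given.

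The other genes of the cell cycle gave a background to these lists. None of 5 G1 cyclins and kinases was past 1.5-fold between the libraries in any of the 6 classes. Ccnd1, the D-type cyclin that starts the cycle, stood at 3807 and 3444 CPM in tumor cells and between 320 and 761 in the other classes. Cdkn1a, the p21 inhibitor of Cdk2, was highest in monocytes, with 1403 and 1416 there, 999 and 1123 in macrophages, 209 and 258 in tumor cells and 164 and 185 in T cells. Of 17 further S-phase genes 3 were lower in macrophages, Prim1 at -0.70, Uhrf1 at -0.75 and Hells at -1.02 on the log2 scale, and none was higher, where 4.19% of all genes were lower and 5.49% higher, and none of 23 further G2/M genes was past 1.5-fold there. In stromal cells 4 of 13 tested further S-phase genes were higher and 5 of 18 further G2/M genes lower, among them Cenpa at -1.10, where 9.25% of all genes were higher and 8.89% lower, and in tumor cells none of either list was past 1.5-fold. In dendritic cells 4 of 15 tested further S-phase and 2 of 20 further G2/M genes were lower, where 9.33% of all genes were lower. The sum of these further G2/M genes had a log2 ratio of -0.08 (-0.14 to -0.01) there, and their median ratio was -0.30. The lower G2/M sum of dendritic cells was thus not shared to the same degree by the further list.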

How the data were processed

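Single-cell RNA of 2 tumors, 1 library per genotype, was analysed from the counts of UMIs per gene and droplet that the authors deposited. The submitters' processing notes name Cell Ranger 2.1.1 and mm10. The counts were used as deposited, with no replicate for either genotype.

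A droplet entered the analysis when it had 500 or more genes, 1000 or more UMIs and a mitochondrial share of 15% or less. Both libraries were clustered together with scanpy 1.11.5 and igraph 0.11.9 (2000 variable genes without cell cycle and histone genes, 30 components, 20 neighbours, Louvain resolution 0.5), under Python 3.11.15 with scipy 1.17.1. Clusters were named from marker lists, with thresholds on the chromosome profile and Ptprc set after the data were seen. Clusters with leading genes or markers of another type stayed unnamed. So did a cluster of 1264 and 841 cells that had the tumor chromosome profile together with Ptprc, of which 28.2% were marked as doublets. Its sums, not counted in any class, had log2 ratios between the libraries of -0.05 (-0.09 to -0.0049) for the S-phase and 0.11 (0.07 to 0.15) for the G2/M genes. Scrublet marked 2.90% and 2.60% of cells as doublets, which were kept and left out in an alternative.

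Counts were summed per class and library and expressed as CPM, per 1000000 UMIs of the class in that library. Intervals are exact Poisson or binomial intervals (95%), with Newcombe intervals for differences of shares. Genes that reached 20 counts over both libraries were set against a 1.5-fold limit after the median log2 ratio of all genes was subtracted, and no p-value was computed. All 42 genes are described, and in each class the 3 highest and 3 lowest ratios among genes with at least 100 counts are named. TMM factors came from edgeR 4.0.16. The 1.5-fold call and the intervals of class sums were checked on simulated Poisson counts, without variation between cells or animals. Clustering, naming, sorting by phase and shares of cells were not simulated. The genes, lists and markers were chosen with earlier results of these data known. Alternatives tried were a strict cell filter, doublets left out, cell cycle genes kept in the clustering, resolution 1.0, TMM, a mean over cells, and other minimum counts, UMI limits and depths. The collagen-led cluster counted as tumor cells, the cluster low in mitochondrial UMIs left out and shared barcodes left out were added after seeing the data.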

Additional observations from a re-analysis of the deposited data

Results flagged for a closer look

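Relative to the median of all genes, the summed G2/M genes went opposite ways between the libraries in different cell groups, each with a counting interval that excluded 0. The log2 ratio of Lmo7-/- over Lmo7+/+ was -0.45 in dendritic cells, -0.41 in stromal cells and -1.18 in the fibroblasts among them, and 0.57 in the collagen-led cluster with the tumor chromosome profile. The shares of cells with G2/M UMIs in dendritic cells, stromal cells and fibroblasts had differences whose intervals included 0, and without subtracting the median the ratio of the collagen-led cluster, 0.49, was 0.08 with cell cycle genes kept in the clustering. Keeping these genes sorts cells partly by the genes compared. With 1 library per genotype the difference between these cell groups was not tested.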

How the results depend on the processing

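In tumor cells the ratio between the libraries had no stable direction. The S-phase log2 ratio of -0.07 became 0.09 with cell cycle genes kept in the clustering, 0.09 at resolution 1.0, 0.10 with the collagen-led cluster counted as tumor cells and -0.04 with TMM. The G2/M ratio of -0.02 became 0.10, 0.07, 0.10 and 0.01 under the same settings, 0.03 as a mean over cells and -0.05 without the cluster low in mitochondrial UMIs. In macrophages the S-phase and G2/M ratios stayed below 0, at -0.48 and -0.47 at resolution 1.0 and -0.30 and -0.24 with TMM. At resolution 1.0, however, a cluster of 783 and 1375 cells with all 12 macrophage markers stayed unnamed. The macrophage class was therefore smaller there than in the reported result. The G2/M ratio of monocytes was -0.04 with cell cycle genes kept. In T cells the S-phase ratio was 0.13 with these genes kept and 0.14 with TMM, and the G2/M ratio 0.17 with TMM and -0.04 as a mean over cells. With cell cycle genes kept no natural killer cluster was named, and the T cluster of 578 and 730 cells was led by Gzmc, Gzma and Xcl1. The G2/M ratio of stromal cells was -0.30 without shared barcodes. In the collagen-led cluster the S-phase and G2/M ratios of 0.53 and 0.49 became 0.18 and 0.08 with cell cycle genes kept and 0.28 and 0.43 at resolution 1.0, alternatives chosen after seeing the data. Keeping cell cycle genes sorts cells partly by the genes compared, so that setting is not an independent check.

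Between classes, the S-phase ratio of tumor cells over macrophages was 0.31 with cell cycle genes kept, 0.55 at resolution 1.0, 0.31 with the collagen-led cluster, 0.23 without the cluster low in mitochondrial UMIs, -0.15 with TMM and 0.42 as a mean over cells. The G2/M ratio was 1.21 at resolution 1.0, 0.93 without that cluster, 0.58 with TMM and 1.30 as a mean over cells. For T cells over macrophages, the S-phase and G2/M ratios were 1.07 and 1.13 with the strict filter, 0.81 and 0.73 with cell cycle genes kept, 1.08 and 1.08 at resolution 1.0, 0.46 and 0.48 with TMM and 0.76 and 0.68 as a mean over cells. The macrophages at resolution 1.0 did not include the unnamed cluster of 783 and 1375 cells.

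Genes past 1.5-fold lower numbered 8 in macrophages without subtracting the median, 5 in dendritic cells, 1 in T cells and 2 in stromal cells with at least 100 counts, and 0 in T cells without doublets. Genes past 1.5-fold higher numbered 1 in dendritic cells and 6 in stromal cells with at least 4 counts, 0 in stromal cells with at least 100 counts, and 5 in T cells without doublets. No share of all genes is given for these settings, so the counts have no background beside them. The share differences of macrophages were -11.3 and -6.19 points with at least 2 UMIs, -4.46 and -3.28 with at least 5, -6.15 and -5.26 at 1000 UMIs, -12.3 and -7.49 at 3000 UMIs and -14.9 and -11 without thinning, for the S-phase and G2/M genes. In the other classes differences whose interval included 0 changed sign, among them the S-phase difference of dendritic cells (from -3.98 to 1.85 without thinning) and of stromal cells (from -0.19 to 6.58 without thinning) and the G2/M difference of T cells (from 2.13 to -1.30 at 1000 UMIs). Of the planned comparisons with an alternative, 167 stayed within the counting interval of the reported value or, for counts of genes, within 1.5-fold of it, 17 of them with a change of sign, 45 moved farther and 8 turned from a direction whose interval had excluded 0. Of the added ones the numbers were 17, none with a change of sign, 9 and 2. The causes were not tested. With 1 library per genotype, variation between animals cannot be told apart from genotype, and classes of few cells rest on few counts.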
